A study of Mus musculus with 9 samples.

Results

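The HOX genes, the homeodomain transcription factors that record position along the body axis, were examined in RNA-seq of lymphatic endothelial cells (LECs) from meninges, diaphragm and skin. Members were the rows of the count table whose symbol was Hox followed by a cluster letter from a to d and a paralog number, and 20 such genes were found among 23018 in all. Of these, 7 belong to the HoxA cluster, 6 to HoxB (Hoxb2 to Hoxb7), 2 to HoxC (Hoxc4 and Hoxc6) and 5 to HoxD (Hoxd3, Hoxd4, Hoxd8, Hoxd9 and Hoxd10). The reference names hold 39 mouse HOX genes, and the other 19 were not analysed here. The cells came from untreated, wild-type male C57BL/6J mice aged 10 weeks and were sorted as negative for the leukocyte antigen CD45 and positive for both CD31 and podoplanin. Each of the 3 tissues gave 3 libraries, 9 in all. Genotype, treatment and age were the same in the 3 groups, so tissue is the only labelled difference. The labels do not say whether a library holds cells of 1 mouse or of pooled mice, nor from which part of the body the skin was taken, so a p-value here reflects spread among the libraries, which may be technical.

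In mammals the HOX genes lie in 4 clusters on separate chromosomes, and the genes of a cluster are numbered from 1 at the anterior end to 13 at the posterior end. Their order along the chromosome matches the order along the body in which they are switched on in the embryo, so that low numbers mark the hindbrain and neck and high numbers the lower trunk and the limbs. The face, the forebrain and much of the skull roof form from tissue without HOX expression. Adult fibroblasts, smooth muscle and vascular endothelium keep part of the HOX pattern of the site where they arose, held by Polycomb repression and Trithorax activation, and HOX proteins bind DNA together with PBX, MEIS and PKNOX cofactors.

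Total counts per library ran from 26075366 to 34592850. The lymphatic transcription factor gene Prox1 was abundant in each tissue, at 1087 ± 326 CPM (counts scaled to a common effective library size) in meninges, against 1810 ± 188 in diaphragm and 1930 ± 123 in skin (n = 3 libraries each, SD). The sum of 12 LEC identity genes was 16886, 6917 and 12338 CPM in Meninges replicates 1 to 3, 15476 to 21094 CPM in diaphragm and 21386 to 22164 CPM in skin. Meninges replicates 2 and 3 also stood apart for 12 fibroblast markers, at 8468 and 8391 CPM against 1507 CPM in Meninges replicate 1, 679 to 1459 CPM in diaphragm and 112 to 1090 CPM in skin. Every diaphragm library carried transcripts of skeletal muscle and its stem cells (534 to 1495 CPM over 12 markers, against 17.1 to 36.9 in meninges and 81.2 to 269 in skin), and 6 of the 12 had no count in meninges and 4 none in skin. Mesothelial markers, 8 in all, summed to 1239, 45.8 and 108 CPM in Diaphragm replicates 1 to 3 and to 18.5 CPM or less in each other library, with 5 of 8 at 0 in meninges and 7 in skin. In these sorted but bulk samples, fewer cells of a type and less RNA per cell cannot be told apart.

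The results below turn on 5 genes. Hoxd4, Hoxd8 and Hoxd9 had counts in all 9 libraries, Hoxd10 was counted in diaphragm and skin with 2 counts in meninges, and Hoxc4 was counted in diaphragm alone. The 250 bases before the annotated start of each are shown. Which start the counted transcripts used was not tested. They come from RefSeq on build GRCm38.p6, whereas the deposited counts were made on mm9. Each is written 5′ to 3′ on the strand of the gene, and capitals mark AGGTCA or its reverse complement TGACCT, the core bound by retinoic acid receptors and other nuclear receptors.
Hoxd4, chr2:74721728-74721977, plus strand: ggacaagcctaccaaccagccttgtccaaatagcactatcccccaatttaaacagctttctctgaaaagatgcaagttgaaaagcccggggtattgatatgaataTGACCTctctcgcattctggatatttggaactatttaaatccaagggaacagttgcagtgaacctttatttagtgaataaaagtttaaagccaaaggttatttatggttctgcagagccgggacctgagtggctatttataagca
Hoxd8, chr2:74704365-74704614, plus strand: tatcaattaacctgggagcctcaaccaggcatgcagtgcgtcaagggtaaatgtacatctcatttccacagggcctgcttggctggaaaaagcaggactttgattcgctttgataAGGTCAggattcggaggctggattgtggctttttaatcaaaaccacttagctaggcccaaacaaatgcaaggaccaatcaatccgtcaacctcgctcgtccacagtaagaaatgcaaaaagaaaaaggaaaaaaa
Hoxd9, chr2:74697513-74697762, plus strand: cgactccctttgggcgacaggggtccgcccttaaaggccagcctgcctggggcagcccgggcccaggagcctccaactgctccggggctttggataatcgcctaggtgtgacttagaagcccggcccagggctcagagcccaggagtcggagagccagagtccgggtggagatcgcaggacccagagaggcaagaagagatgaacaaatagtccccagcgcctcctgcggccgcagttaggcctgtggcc
Hoxd10, chr2:74691641-74691890, plus strand: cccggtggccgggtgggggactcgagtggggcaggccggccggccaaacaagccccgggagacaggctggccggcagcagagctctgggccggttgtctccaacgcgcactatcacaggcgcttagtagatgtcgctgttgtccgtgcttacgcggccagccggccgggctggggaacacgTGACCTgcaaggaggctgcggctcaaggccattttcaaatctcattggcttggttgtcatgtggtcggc
Hoxc4, chr15:103034145-103034394, plus strand: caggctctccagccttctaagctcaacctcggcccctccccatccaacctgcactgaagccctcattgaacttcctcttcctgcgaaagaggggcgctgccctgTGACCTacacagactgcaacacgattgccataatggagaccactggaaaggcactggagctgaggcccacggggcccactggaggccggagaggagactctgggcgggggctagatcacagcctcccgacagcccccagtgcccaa

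A promoter was held for 12 of the 20 members. Within 250 bases of the start, AGGTCA on either strand was present in 6 of these 12 (Hoxb4, Hoxc4, Hoxd3, Hoxd4, Hoxd8 and Hoxd10), and 14.0% of 32851 promoters of the same length held it. The MEIS and PKNOX core TGACAG was in 2 (Hoxa2 and Hoxa3) against 15.9% of all promoters, and the PBX-HOX composite TGATNNAT was in 1 (Hoxa2) against 7.68%. No promoter of the 12 held the homeodomain core TAATTA, which 4.84% of all promoters held. None of the other motifs was found in the 5 sequences shown, and a match is a description of the letters, not a site. Among the 5 promoters shown, CG dinucleotides numbered 3 in Hoxd4, 6 in Hoxd8, 8 in Hoxc4, 13 in Hoxd9 and 20 in Hoxd10, against a median of 6 over all promoters.

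Hoxd8 and Hoxd9 together held most HOX counts in 7 of the 9 libraries, all but Meninges replicate 2 and Diaphragm replicate 2. Hoxd8, a central paralog, stood at 75.1, 9.87 and 41.2 CPM in Meninges replicates 1 to 3, at 29.0, 74.1 and 92.6 CPM in the diaphragm libraries and at 169.8, 129 and 77.6 CPM in the skin libraries. On scaled CPM the 3 skin libraries lay above the 3 meningeal libraries, by a narrow margin between Skin replicate 3 and Meninges replicate 1. Both tissues overlapped with diaphragm. On library totals the order of those 2 libraries reversed, with 2398 counts of 29297368 in Meninges replicate 1 and 1699 of 27000380 in Skin replicate 3. The log2 fold change of Hoxd8 was -1.58 (standard error 0.71) in meninges against skin, -0.63 (0.70) in meninges against diaphragm and -0.94 (0.70) in diaphragm against skin. None passed the test (edgeR quasi-likelihood adjusted p = 0.34, 0.906 and 0.671). With Meninges replicate 1 standing alone for meninges, the fold change against diaphragm was 0.20, with the opposite sign.

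Hoxd9, the neighbour of Hoxd8 and a posterior paralog used in limb and lower trunk, stood at 38.8, 0.531 and 14.9 CPM in Meninges replicates 1 to 3. It was at 84.7, 32.1 and 60.9 CPM in diaphragm and at 26.9, 200.4 and 78.9 CPM in skin. Libraries of the 3 tissues overlapped, and Meninges replicate 2 was the lowest of the 9. The log2 fold change was -1.71 (standard error 1.08) in meninges against diaphragm and -2.50 (1.10) in meninges against skin, and neither passed (edgeR adjusted p = 0.712 and 0.327). Between diaphragm and skin it was -0.79 (1.05) and turned to 0.16 without Skin replicate 2. Per kilobase of exon, Hoxd8 ranked first among the 20 members in 5 libraries and Hoxd9 in 3, and Hoxb5 ranked first in Meninges replicate 2. Hoxd8 and Hoxd9 together took 29.1% (Meninges replicate 2) to 96.4% (Skin replicate 2) of HOX counts.

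**Figure D1:**
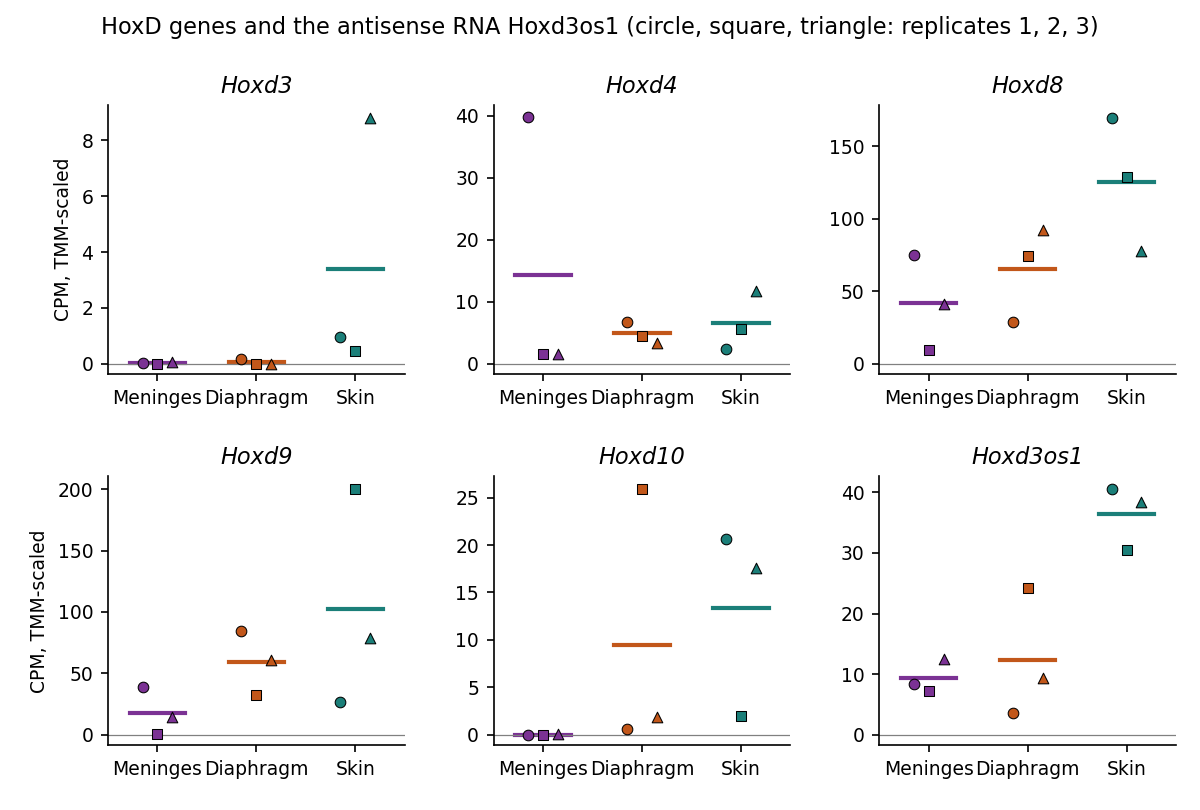
Level of 5 HoxD genes and of the antisense RNA Hoxd3os1 in CPM (vertical axis, a separate linear scale per gene) in the 3 tissues, with 1 symbol per library and a line at the tissue mean of 3 libraries. Hoxd8 and Hoxd9 were present in all 9 libraries, Hoxd10 had 2 counts in meninges, and the 3 skin libraries of Hoxd3os1 sat between 30.5 and 40.6 CPM, above the other 6.

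Because the meningeal libraries differed in their content of LEC transcripts, Hoxd8 and Hoxd9 were also set against the LEC list within each library, a ratio chosen after seeing the data. Hoxd8 gave 4.45, 1.43 and 3.34 reads per 1000 reads of the LEC list in Meninges replicates 1 to 3, against 1.88 to 4.39 in diaphragm and 3.52 to 7.66 in skin. On this scale meninges overlapped with both other tissues. Hoxd9 gave 2.30, 0.0768 and 1.21 reads per 1000 in meninges, 1.65 to 5.47 in diaphragm and 1.21 to 9.37 in skin, again with overlap. The library with the lowest Hoxd8 and Hoxd9, Meninges replicate 2, thus also had the lowest LEC sum and the highest fibroblast sum, and the part of cell content in the HOX levels was not tested.

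**Figure D2:**
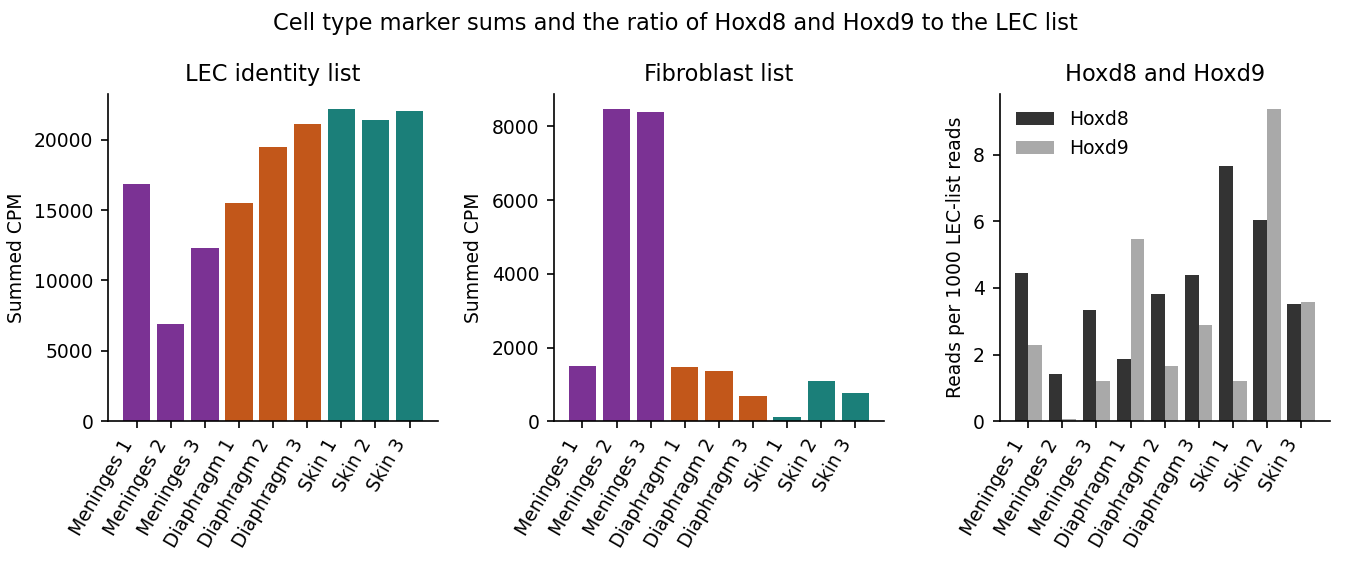
Summed CPM of 12 LEC identity genes (left) and of 12 fibroblast markers (middle), and reads of Hoxd8 and Hoxd9 per 1000 reads of the LEC list (right), in each of the 9 libraries. Meninges replicate 2 had 6917 CPM of LEC transcripts, 8468 CPM of fibroblast transcripts and 1.43 reads of Hoxd8 per 1000 LEC reads, the lowest, highest and lowest of the 9.

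Hoxd10, the most posterior member, separated meninges from the other tissues by presence. It had no count in Meninges replicates 1 and 2 and 2 counts in replicate 3, whereas it stood at 0.59, 25.9 and 1.86 CPM in diaphragm and at 20.7, 1.95 and 17.5 CPM in skin. Both comparisons with meninges were without overlap, and they had the lowest adjusted p of any member (edgeR adjusted p = 0.267 against diaphragm and 0.133 against skin), short of the threshold of 0.05. Hoxd4, a paralog of the neck region, was counted in all 9 libraries. It measured 39.8, 1.62 and 1.53 CPM in meninges, against 6.82, 4.54 and 3.40 in diaphragm and 2.36, 5.68 and 11.8 in skin, so that the meningeal mean rested on replicate 1. Without that library the Hoxd4 log2 fold change against diaphragm went from 1.54 to -1.64. Hoxd3, the most anterior HoxD member in the table, had 25, 11 and 193 counts in the skin libraries, and 3 counts over the meningeal and 5 over the diaphragm libraries. Skin did not overlap with either, and neither difference passed (edgeR adjusted p = 0.303 for meninges and 0.434 for diaphragm).

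The HoxA genes had most of their counts in diaphragm, with a different leading gene in each diaphragm library. Their sum was 26.5, 39.1 and 34.5 CPM in diaphragm and 43.2, 4.06 and 0 CPM in skin, so these tissues overlapped. Hoxa7, a central paralog, was at 8.22, 7.88 and 18.1 CPM in diaphragm, at 12.2 CPM in Meninges replicate 1 with no count in replicates 2 and 3, and had 2 counts in skin. Hoxa5, which patterns the lung and the thoracic axis, was at 16.3, 1.59 and 0.90 CPM in diaphragm, had 1 count in meninges, and stood at 2.83, 0.28 and 0 CPM in skin. Hoxa4 was at 25.3 CPM in Diaphragm replicate 2, 1.62 in replicate 1 and 0 in replicate 3, with 14 counts over the meningeal libraries and none in skin. Hoxa6 had counts in 1 library of the 9, with 343 in Diaphragm replicate 3. The anterior paralogs were scattered over tissues. Hoxa3 reached 39.9 CPM in Skin replicate 1 against 0.16 and 0 in the other skin libraries. Hoxa2, the determinant of the second branchial arch, reached 6.50 CPM in Meninges replicate 2 and 0.50 CPM at most elsewhere.

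HoxB genes likewise had most of their counts in diaphragm. Hoxb4, a regulator of blood stem cells as well as of the axis, was at 0.37, 26.97 and 16.6 CPM in diaphragm and at 0.22 CPM or less in each meningeal and skin library. Hoxb6 was at 28.9, 4.09 and 4.69 CPM in diaphragm, had 2 counts over the meningeal libraries and stood at 0, 0 and 0.64 CPM in skin. Both genes were without overlap between diaphragm and each other tissue. Hoxb7 was at 1.14, 21.9 and 7.52 CPM in diaphragm, had no count in meninges, and reached 26.9 CPM in Skin replicate 1 with no count in the other skin libraries. Against a floor of 3 counts over the 3 meningeal libraries, Hoxb7 was at least 341-fold higher in diaphragm, a bound that covers counting error only.

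Hoxb5 stood higher in meninges than its neighbours Hoxb4 and Hoxb6, at 6.20, 14.8 and 0.24 CPM from 198, 474 and 9 counts. It had no count in skin and stood at 0, 0.49 and 6.88 CPM in diaphragm. Meninges and skin did not overlap, and Hoxb5 was at least 161-fold higher in meninges against the floor of 3 counts over the skin libraries, yet the test did not pass (edgeR adjusted p = 0.222). Hoxb3 was counted in all 3 diaphragm libraries at 0.66, 4.39 and 0.64 CPM, in Meninges replicate 2 at 2.44 CPM and in Skin replicate 3 at 2.24 CPM, and in no other library. Hoxb2, a hindbrain gene, had 28 counts in Diaphragm replicate 3 and none elsewhere.

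The 2 HoxC genes had counts in diaphragm alone. Hoxc4 was at 6.49, 6.89 and 2.79 CPM, from 176, 182 and 78 counts, in the diaphragm libraries. Set against 3 counts over the group as a floor, it was at least 182-fold higher in diaphragm than in meninges and at least 129-fold higher than in skin. Its adjusted p was 0.318 and 0.321 in those comparisons (edgeR). Hoxc6, a thoracic paralog, had 399 counts in Diaphragm replicate 1, 3 in replicate 2 and none in replicate 3, so its presence rested on 1 library, the same that carried most of the mesothelial transcripts. The part of muscle and mesothelial cells in the diaphragm HOX counts was not tested.

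**Figure D3:**
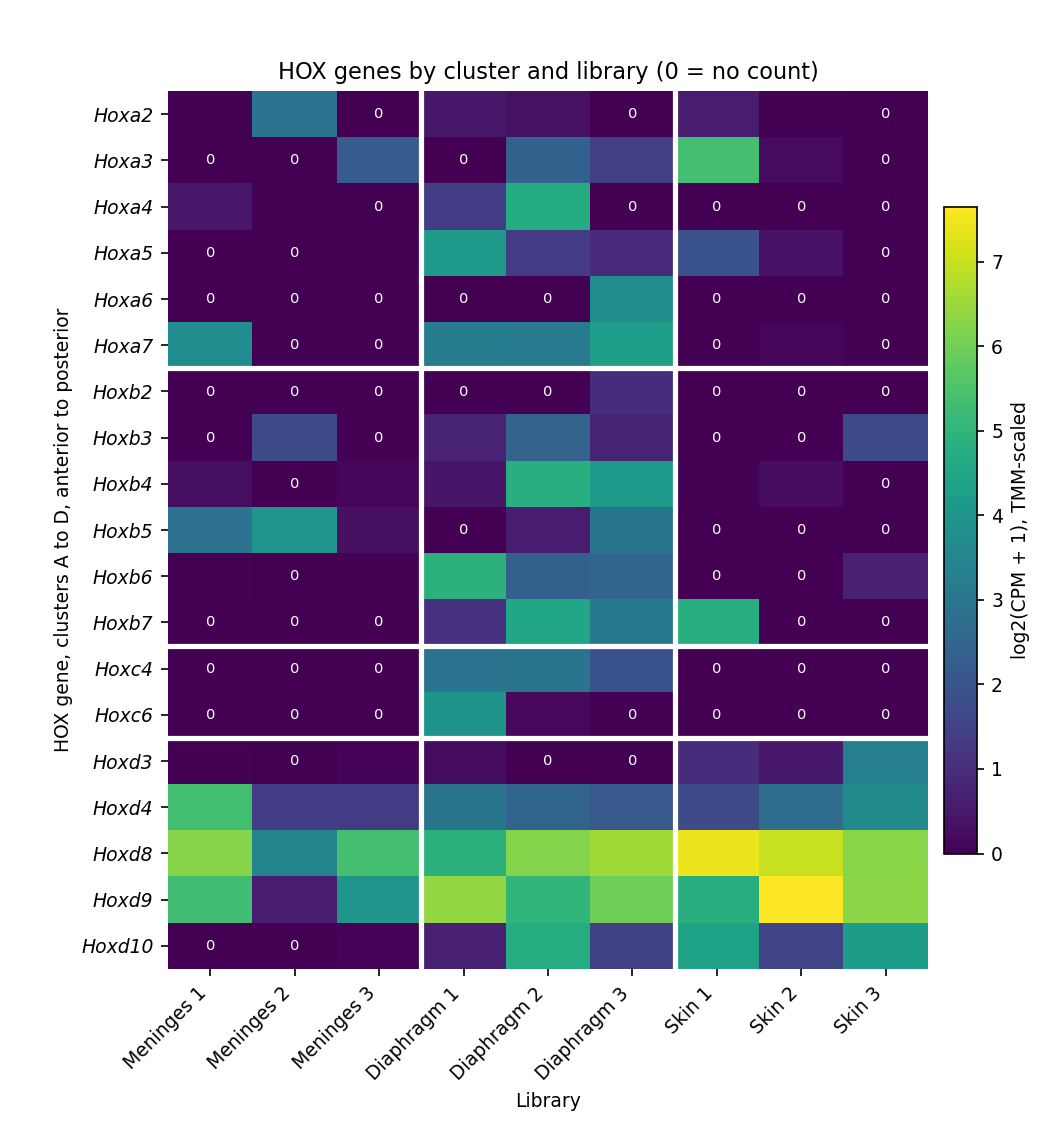
Level of 19 HOX genes, as log2(CPM + 1) in colour, with genes in rows by cluster from anterior to posterior and the 9 libraries in columns by tissue, and 0 printed where a library had no count. The HoxD rows 4, 8 and 9 are filled across all libraries and the HoxC rows in diaphragm alone. Many HoxA and HoxB rows are filled mainly in diaphragm, while others peak in a single skin or meningeal library, as Hoxa3 and Hoxa2 do.

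A HOX gene was taken as detected in a library at 10 counts or more and in a tissue where all 3 libraries reached that number. By this rule 11 of 20 were detected in diaphragm, 5 in skin and 3 in meninges. The 11 were Hoxa5, Hoxa7, Hoxb3, Hoxb4, Hoxb6, Hoxb7, Hoxc4, Hoxd4, Hoxd8, Hoxd9 and Hoxd10. The 5 of skin were all HoxD genes, Hoxd3, Hoxd4, Hoxd8, Hoxd9 and Hoxd10, and the 3 of meninges were Hoxd4, Hoxd8 and Hoxd9, which the other 2 tissues shared. Over all 23018 genes the order was different, with 48.9% detected in meninges, 41.6% in diaphragm and 39.1% in skin, against 15%, 55% and 25% of the HOX genes. Per library, 14, 14 and 16 HOX genes reached 10 counts in diaphragm (replicates 1 to 3), 6, 6 and 4 in meninges and 9, 6 and 7 in skin. No diaphragm library overlapped with a library of either other tissue, and meningeal and skin libraries met at 6. Meninges replicate 1, the meningeal library with the fewest fibroblast transcripts, had 6, as had replicate 2. Replicate 1 also had the highest sum of 10 blood endothelial markers of the 9 libraries, at 2405 CPM. Bone markers, 6 in all, summed to 183, 926 and 597 CPM in Meninges replicates 1 to 3, against 13.4 CPM or less in each other library.

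By position along the clusters, each diaphragm library had 10 central paralogs (numbers 4 to 8) at 10 counts or more, against 5, 3 and 2 in meninges and 4, 2 and 3 in skin, out of 12 in the table. The table holds no member above paralog 10, that of Hoxd10, so higher numbers could not be seen. The highest paralog number detected was 10 in each diaphragm and skin library and 9 in each meningeal library. This restates the counts of Hoxd10 and Hoxd9. The lowest detected HoxD member was Hoxd3 in each skin library and Hoxd4 in each meningeal and diaphragm library. The set was uneven even within a tissue. Of 19 HOX genes that reached 10 counts in some diaphragm library, 8 had no count in another diaphragm library, against 29.8% of all such genes. The same held for 5 of 9 in meninges (26.1% of all genes) and 7 of 12 in skin (31.4%).

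The summed HOX level was 173, 35.8 and 61.6 CPM in Meninges replicates 1 to 3, 200.1, 241 and 233 CPM in diaphragm and 291, 342 and 198 CPM in skin. On this scaling each meningeal library was below each diaphragm and skin library. On library totals Meninges replicate 1 (5520 HOX counts of 29297368) was above Skin replicate 3 (4324 of 27000380). The HoxD sum was 74.5 ± 72.3 CPM in meninges, against 139 ± 19 in diaphragm and 251 ± 76 in skin (n = 3 libraries each, SD). HoxA summed to 7.6 ± 4.64, 33.4 ± 6.3 and 15.7 ± 23.8 CPM in the same order, and HoxB to 8.01 ± 8.56, 42.1 ± 14.0 and 10.0 ± 14.7 CPM. Single libraries carried several of these means. Without Meninges replicate 1 the meningeal HoxD sum was 34.9 CPM and the HoxA sum 5.06 CPM, and without Meninges replicate 2 the HoxB sum was 3.40 CPM. In skin, HoxA was 2.03 and HoxB 1.54 CPM without Skin replicate 1, and HoxA was 23.6 CPM without Skin replicate 3. These sums are descriptions and were not tested.

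**Figure D4:**
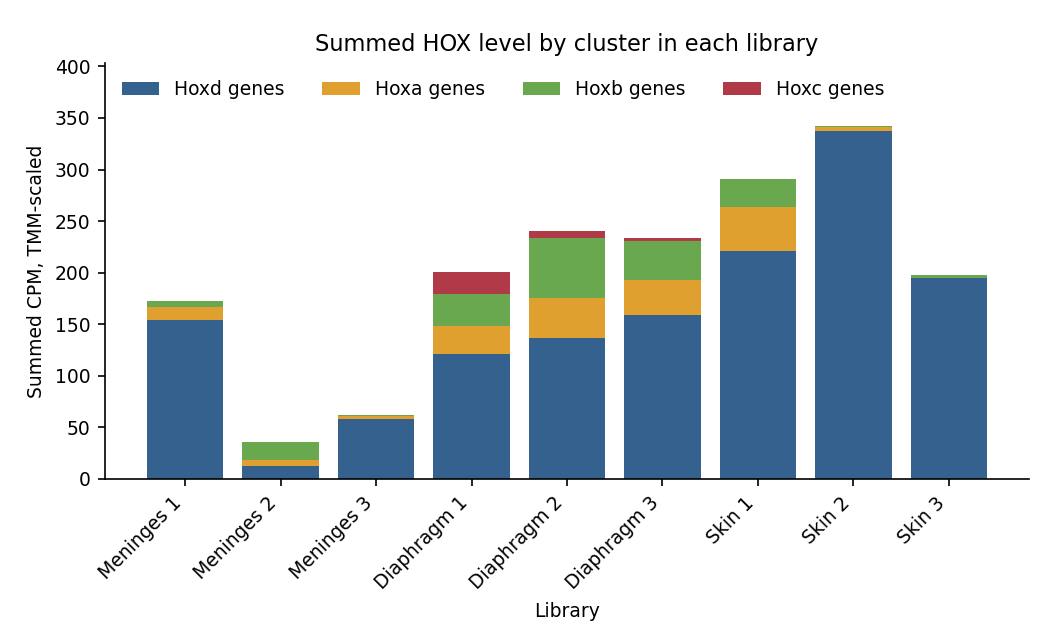
Summed CPM of the HOX genes of each cluster (stacked bars) in the 9 libraries. HoxD genes made up between 33.6% of HOX counts (Meninges replicate 2, where HoxB held 48.2%) and 98.8% (Skin replicate 2), and the 3 diaphragm libraries carried counts from all 4 clusters.

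Tested singly over all 14831 genes that passed the filter on low counts, no HOX gene was called in any comparison at an adjusted p under 0.05. Of the 20 members 16 passed the filter and 4 did not, among them Hoxa6, Hoxb2 and Hoxc6. A gene counted in 1 tissue passes this filter through that tissue, so counts over the 16 are given only as a description. In meninges against diaphragm, 0.344% of all genes were called by edgeR (0.169% higher and 0.175% lower in meninges). At an unadjusted p under 0.05, 6 of the 16 were lower in meninges (Hoxa5, Hoxb4, Hoxb6, Hoxb7, Hoxc4 and Hoxd10) and 0 higher, against 4.05% of all genes lower, 6.01% higher and 10.1% in either direction. The same 6 were without overlap, which held for 6.7% of all genes in that direction and 10.4% in the higher direction. The median log2 fold change was -1.60 over the 16 and 0.05 over all genes. The DESeq2 Wald test, which gave 12 HOX genes an adjusted p, called 5 lower (Hoxa5, Hoxb4, Hoxb7, Hoxc4 and Hoxd10), against 1.98% of all genes. The limma voom fit called Hoxc4 lower, against 0.587% of all genes.

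In meninges against skin, 1.32% of all genes (0.748% higher and 0.573% lower in meninges) and 0 of the 16 were called by edgeR. At an unadjusted p under 0.05, 6 were lower in meninges (Hoxa5, Hoxb7, Hoxd3, Hoxd8, Hoxd9 and Hoxd10) and 2 higher (Hoxa7 and Hoxb5), against 4.9% and 8.93% of all genes, 13.8% in either direction. On scaled CPM, libraries did not overlap for Hoxd3, Hoxd8 and Hoxd10, lower in meninges, and for Hoxb5, higher. On library totals those of Hoxd8 overlapped. Absence of overlap held for 7.34% of all genes in the lower direction and 12.9% in the higher direction. The median log2 fold change was -0.79 over the 16 and 0.08 over all genes. Of 12 HOX genes with an adjusted p, DESeq2 called 5, Hoxa5, Hoxb7, Hoxd3 and Hoxd10 lower and Hoxb5 higher, against 2.85% and 6.64% of all genes. The limma voom fit called Hoxd10 lower, against 1.08% of all genes.

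In diaphragm against skin, 0.0405% of all genes (0.0337% higher and 0.00674% lower in diaphragm) and 0 of the 16 were called by edgeR. At an unadjusted p under 0.05, 6 were higher in diaphragm (Hoxa4, Hoxa7, Hoxb4, Hoxb5, Hoxb6 and Hoxc4) and 0 lower, against 6.82% of all genes higher, 4.97% lower and 11.8% in either direction. Libraries did not overlap for Hoxa7, Hoxb4, Hoxb6 and Hoxc4, higher in diaphragm, and for Hoxd3, lower, against 7.54% and 5.95% of all genes. The median was 0.82 over the 16 and 0.01 over all genes. Of 12 HOX genes with an adjusted p, DESeq2 called 5 (Hoxa4, Hoxb4, Hoxb5 and Hoxc4 higher, Hoxd3 lower), against 4.28% of all genes higher and 2.82% lower. By limma voom 0 HOX genes and 0.00674% of all genes were called. The 3 comparisons share libraries pairwise, so their values for a gene are not independent.

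Among RNAs made from within the clusters, Hoxd3os1, whose model lies opposite those of Hoxd3, Hoxd4 and Hoxd8, was counted in all 9 libraries. It stood at 8.39, 7.22 and 12.6 CPM in meninges, against 3.57, 24.3 and 9.35 in diaphragm and 40.6, 30.5 and 38.4 in skin. Skin did not overlap with the other tissues, yet neither difference passed (edgeR adjusted p = 0.471 for meninges against skin and 0.621 for diaphragm against skin). No source used here gives the strand setting of the counting. In GENCODE M21, 13 of the 20 HOX genes overlap a gene model on the opposite strand and 9 a model on the same strand, so these counts are uncertain. Mir10b, the microRNA gene of the HoxD cluster, was at 1.35, 0.531 and 0.159 CPM in meninges, against 2.47, 0.0379 and 1.68 in diaphragm and 6.19, 0.69 and 11.9 in skin. It lies within the models of Hoxd3 and Hoxd4, and this assay was not made to capture mature microRNAs. The mature arm it encodes is shown with its seed, bases 2 to 8, in capitals, from RefSeq on GRCm38.p6.
mmu-miR-10b-5p, chr2:74726074-74726096, plus strand: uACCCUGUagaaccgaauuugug

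Of 28 cluster RNAs and flanking genes listed, 16 were in the table and 10 passed the filter, and 0 were called in the 3 comparisons. At an unadjusted p under 0.05, 3 of the 10 were lower in meninges than in diaphragm, 2 lower than in skin, and 1 higher in diaphragm than in skin. The shares over all genes were 4.05%, 4.9% and 6.82%. Skap2, the adaptor gene beside the anterior end of HoxA, was at 22.8, 22.3 and 56.5 CPM in meninges, against 259, 114 and 138 in diaphragm and 44.7, 65.6 and 73.1 in skin. Its meningeal and diaphragm libraries did not overlap (edgeR adjusted p = 0.137).

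Of the HOX cofactors in the table, Meis3 and Pknox2 had no count in skin, and each of the others had counts in every tissue. Meis2, a MEIS family partner of HOX proteins, was at 156 ± 54, 87 ± 19.6 and 86.9 ± 7.0 CPM in meninges, diaphragm and skin (n = 3 libraries each, SD). Of 9 cofactors listed, 8 were in the table and tested, and 0 were called. An unadjusted p under 0.05 held for 2 higher in meninges than in skin and 1 higher in diaphragm than in skin. The shares over all genes were 8.93% and 6.82%. Meis1, chosen after its values were seen, was lower in each meningeal library than in each diaphragm library, at 0.0313, 2.81 and 1.67 CPM in meninges against 8.33, 18.7 and 26.4 in diaphragm and 7.16, 17.3 and 2.56 in skin (edgeR adjusted p = 0.541 for meninges against diaphragm).

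The chromatin regulators that hold HOX states showed no called gene. Of 22 Polycomb genes 21 were tested and 0 called, and of 11 Trithorax and H3K27 demethylase genes 11 were tested and 0 called. At an unadjusted p under 0.05, 1 Polycomb gene was lower in diaphragm than in skin, against 4.97% of all genes. The Trithorax list had 1 gene lower in meninges than in diaphragm and 2 lower than in skin, against 4.05% and 4.9%. The Polycomb subunit Phc3 was at 251 ± 38, 276 ± 87 and 299 ± 70 CPM in meninges, diaphragm and skin. Ezh1, a histone H3K27 methyltransferase, was at 91.7 ± 50.4, 103 ± 22 and 174 ± 24 CPM. Kmt2a, the Trithorax methyltransferase that maintains HOX expression, was at 511 ± 107, 456 ± 137 and 459 ± 189 CPM, and Ash1l at 458 ± 94, 407 ± 98 and 567 ± 323 CPM. None of these 4 was called by edgeR, and for Phc3, Kmt2a and Ash1l the libraries of the 3 tissues overlapped. On scaled CPM the skin libraries of Ezh1 (197, 148 and 177 CPM) lay above those of meninges (44.3, 86.2 and 145) and diaphragm (107, 78.8 and 123). Such a separation held for 7.34% and 5.95% of all genes. On library totals Meninges replicate 3 (5474 counts of 34592850) was above Skin replicate 2 (3658 of 26619515).

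Retinoic acid switches on the anterior HOX genes in the embryo. Of 18 genes of its pathway, 17 were in the table and 14 tested. The edgeR test called 1 of them, higher in meninges than in skin, against 0.748% of all genes. At an unadjusted p under 0.05, 5 of the 14 were higher in meninges than in skin and 3 higher in diaphragm than in skin. The shares over all genes were 8.93% and 6.82%. Dhrs3, a retinaldehyde reductase, was at 130 ± 16, 112 ± 30 and 65.2 ± 53.5 CPM in meninges, diaphragm and skin, and the retinoid receptor gene Rxra at 83.5 ± 6.0, 43.4 ± 12.7 and 23.5 ± 20.4 CPM. Of 10 other axial regulators, 5 were in the table and 4 tested, with 0 called by edgeR. An unadjusted p under 0.05 held for 1 higher in meninges than in diaphragm (6.01% of all genes). It also held for 1 lower in meninges than in skin (4.9%) and 2 lower in diaphragm than in skin (4.97%). Nr6a1, which acts on trunk segment number, was at 12.8 ± 5.2, 4.72 ± 5.97 and 5.45 ± 3.33 CPM.

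The lists of other positional transcription factors were read beside the HOX genes. Of 13 limb and trunk factors, 10 were in the table and 9 tested. Tbx3, a limb and body wall factor, was called higher in meninges than in skin (0.438, 9.59 and 18.3 CPM against no count, edgeR adjusted p = 0.0406) and stood at 56.1, 34.8 and 18.1 CPM in diaphragm. Tbx15 was at 51.5 ± 33.4, 2.55 ± 4.43 and 1.42 ± 2.46 CPM in meninges, diaphragm and skin. At an unadjusted p under 0.05 (edgeR), diaphragm exceeded meninges for 2 of the 9, Gata4 and En1, against 4.05% of all genes. Meninges exceeded diaphragm for 1, Lmx1b, against 6.01%. Lmx1b had counts in each meningeal library and none in diaphragm. Gata4, En1 and Shox2, picked after their values were seen, had counts in the 3 diaphragm libraries and in no other library, as Hoxc4 did. The share of all genes counted in diaphragm alone was not taken. Gata4 was at 46.8, 29.0 and 4.66 CPM there, beside muscle marker sums of 942, 1495 and 534 CPM and mesothelial sums of 1239, 45.8 and 108 CPM, whose part was not tested. Its adjusted p against meninges was 0.136 (edgeR). Of 21 cranial factors, 20 were in the table and 13 tested. Called higher in meninges than in skin were 3, Alx4, Zic4 and Foxd1, without a count in skin or diaphragm. A call in that direction, as for these and Tbx3, held for 0.748% of all genes. In meninges against diaphragm 0 of the 13 were called. At an unadjusted p under 0.05 (edgeR), 8 were higher in meninges than in diaphragm and 9 higher than in skin, with 0 lower in either. The shares over all genes were 6.01% and 8.93% higher. In Meninges replicates 1 to 3, Alx4 was at 4.60, 141 and 37.9 CPM, Zic4 at 6.70, 56.3 and 46.9 CPM and Foxd1 at 4.32, 79.9 and 30.3 CPM. All 3, like Tbx3 among the meningeal libraries, were lowest in replicate 1, as was the fibroblast sum (1507, 8468 and 8391 CPM). The part of fibroblast content in the calls of Tbx3, Alx4, Zic4 and Foxd1 was not tested.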

How the data were processed

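Per the labels' protocols, RNA came from a PicoPure extraction and was amplified by the NuGEN Ovation V2 system before sequencing. The authors deposited whole-number read counts for each Ensembl gene and library, naming FastQC, STAR and HTSeq and build mm9, per the submitters' processing notes. No source used here gives versions, annotation or strand setting. Each row of the table has a total of at least 2 counts. The test was edgeR 4.0.16 (R 4.3.3) after filterByExpr (14831 genes of 23018) and TMM scaling, by a quasi-likelihood model with 1 mean per tissue over 9 libraries, with Benjamini-Hochberg adjustment over all genes tested. The biological coefficient of variation was 1.243. Total counts ran from 26075366 to 34592850. Exon lengths are GENCODE M21 unions. Library values were planned for HOX genes called or at 20 CPM or more in a tissue (Hoxd8 and Hoxd9), while those of other members were printed after they were seen. From each gene list up to 4 called genes were taken and, where fewer than 2 were called, from the 2 highest. Some genes of these lists are counted but not reported here. The members and lists were chosen with earlier results of these data known. Alternatives were DESeq2 1.42.0, limma voom 3.58.1, other scalings and filters, 2 tissues only, the replicate number as a block, and each library left out.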

Additional observations from a re-analysis of the deposited data

How the results depend on the processing

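No HOX gene was called in any of the 3 comparisons under other scalings, other filters, fits of 2 tissues, the replicate block or any fit without 1 library, where the number called stayed at 0 to 0. Meninges replicate 1 standing alone for meninges also gave 0 in both meningeal comparisons. The DESeq2 Wald test called 5 HOX genes in each comparison, and limma voom called 1, 1 and 0. The cause was not tested. Same-numbered libraries correlated between -0.0205 and 0.0512 in their deviations from the tissue means (9 pairs). The labels do not say whether the numbers pair the libraries. Given the wide spread among replicates, a low correlation cannot decide it. With the replicate block the Hoxd4 log2 fold change against skin was -0.30 in place of 1.11. It was also below 0 with limma voom (-0.39, and -0.21 against diaphragm) and without Meninges replicate 1. With each library left out in turn, Hoxd4 ranged from -1.64 to 2.07 in meninges against diaphragm, from -2.065 to 1.82 in meninges against skin and from -0.83 to 0.29 in diaphragm against skin, where Skin replicate 3 gave the change of sign. Hoxd9 in diaphragm against skin ranged from -1.24 to 0.16, with the change of sign without Skin replicate 2. Hoxd8 against diaphragm was 0.20 with Meninges replicate 1 alone. At 50 counts in place of 10, 6 HOX genes were detected in diaphragm and 3 in skin, and Meninges replicate 1 alone, chosen after seeing the data, had 6. The summed HOX level of meninges was 48.7 CPM without Meninges replicate 1 in place of 90.1. Over all genes, the calls were 51, 196 and 6 in meninges against diaphragm, meninges against skin and diaphragm against skin. They were 19 to 105, 74 to 236 and 2 to 58 with 1 library left out, 298, 610 and 305 without a filter, 932, 1458 and 1064 with DESeq2, 200, 414 and 1 with limma voom, and 70, 231 and 16 with the replicate block. Fits of 2 tissues gave 108, 158 and 1, and Meninges replicate 1 alone gave 11 and 58 in the meningeal comparisons. In diaphragm against skin, library totals gave 14 and the filter of 50 counts gave 13. With library totals alone, the median log2 difference of all genes between meninges and skin was 0.50 in place of 0.22, and the calls split into 156 higher and 56 lower in place of 111 and 85.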
